A study of Mus musculus with 5 samples.

Results

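Fgf5, Otx2, Pou3f1 and Dnmt3b are genes of the primed epiblast, and the report follows their chromatin in mouse epiblast stem cells. All peaks of 4 histone modifications were taken from a fixed mm9 window around each gene: chromosome 5 at 98620000 to 98760000 for Fgf5, chromosome 14 at 49200000 to 49400000 for Otx2, chromosome 4 at 124300000 to 124370000 for Pou3f1, and chromosome 2 at 153450000 to 153530000 for Dnmt3b. A peak was a member when it shared at least 1 bp with a window, which gave 103 peaks of 156288 in the whole series. They were 18 peaks of H3K4me3, 43 of H3K4me1, 27 of H3K27ac and 15 of H3K27me3. The Fgf5 window of 140 kb held 23 of them, the Otx2 window of 200 kb held 38, the Pou3f1 window of 70 kb held 27, and the Dnmt3b window of 80 kb held 15.

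The cells were EpiSC9, an epiblast stem cell line kept on irradiated mouse fibroblast feeders in serum replacement, with 10 ng/ml of FGF2. Each modification was mapped by chromatin immunoprecipitation and sequencing from 5000000 crosslinked cells, with 1 library and no replicate per mark. There was no untreated or mutant group, so each gene is described in these libraries alone, and no test could be made. How much signal came from the feeder fibroblasts was not tested.

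Fgf5 encodes a secreted fibroblast growth factor whose expression marks the epiblast after implantation. Otx2 and Pou3f1 encode transcription factors, of the homeodomain and POU families, that act when cells leave naive pluripotency and again in the developing nervous system. Dnmt3b encodes a DNA methyltransferase that places new methylation and is abundant in the epiblast. H3K4me3 lies at the starts of genes, and H3K4me1 lies beside starts and at enhancers. H3K27ac accompanies active starts and enhancers, and H3K27me3 is deposited by Polycomb complexes at repressed or poised genes.

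Promoter sequences were available from RefSeq for 3 of the 4 genes, in build GRCm38.p6, and are shown because CpG content is a property of starts that carry H3K4me3. Each runs from 250 bases before the start to 50 after it, on the + strand for Fgf5 and Dnmt3b and the - strand for Otx2. Otx2 had 4 starts in the table, of which the most upstream and the one richest in CpG are given. Capitals mark CpG dinucleotides.
Fgf5: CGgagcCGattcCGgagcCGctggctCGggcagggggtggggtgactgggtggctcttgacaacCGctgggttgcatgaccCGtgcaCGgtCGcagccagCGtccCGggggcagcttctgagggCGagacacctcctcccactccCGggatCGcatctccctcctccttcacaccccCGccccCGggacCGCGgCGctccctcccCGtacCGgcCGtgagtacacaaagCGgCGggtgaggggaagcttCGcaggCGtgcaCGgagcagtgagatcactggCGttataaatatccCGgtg
Dnmt3b: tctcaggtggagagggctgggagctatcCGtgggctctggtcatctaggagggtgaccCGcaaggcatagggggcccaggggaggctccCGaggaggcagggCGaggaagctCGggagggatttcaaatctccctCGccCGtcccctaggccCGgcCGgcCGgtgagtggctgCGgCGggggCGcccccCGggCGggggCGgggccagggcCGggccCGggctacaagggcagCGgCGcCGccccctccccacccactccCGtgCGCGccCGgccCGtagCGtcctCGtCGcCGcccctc
Otx2, most upstream start: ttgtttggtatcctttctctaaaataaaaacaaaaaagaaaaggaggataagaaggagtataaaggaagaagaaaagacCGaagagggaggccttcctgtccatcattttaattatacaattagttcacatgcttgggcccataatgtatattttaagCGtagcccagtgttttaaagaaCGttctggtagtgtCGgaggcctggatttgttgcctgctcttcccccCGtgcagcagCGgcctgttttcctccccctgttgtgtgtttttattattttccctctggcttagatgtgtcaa
Otx2, start richest in CpG: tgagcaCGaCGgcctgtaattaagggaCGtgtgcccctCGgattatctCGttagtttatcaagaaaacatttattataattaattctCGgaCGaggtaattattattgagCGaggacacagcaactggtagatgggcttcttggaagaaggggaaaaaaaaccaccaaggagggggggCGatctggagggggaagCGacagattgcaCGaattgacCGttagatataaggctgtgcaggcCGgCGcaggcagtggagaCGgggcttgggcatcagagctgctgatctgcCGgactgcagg

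The Fgf5 promoter held 29 CpG and the Dnmt3b promoter 30, more than 87.1% and 88.3% of the 32851 promoters in the table, whose median was 7. The Otx2 starts, from the most upstream on, held 6, 8, 16 and 11 CpG. GC content was 68.3% for Fgf5, 76% for Dnmt3b and 41.7% to 53.7% for Otx2, against a median of 52.7%. So the Fgf5 and Dnmt3b starts were CpG-rich and the Otx2 starts were nearer to the middle of the table.

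Short motifs were counted on both strands, with overlapping matches each counted. GGGCGG occurred 4 times at Dnmt3b and once at Fgf5, and 35.7% of all promoters held it. TATAAA was found at Fgf5 and at the most upstream Otx2 start (13.6% of promoters). CCAAT occurred at the second Otx2 start (37.4%). TAATCC, a sequence that Otx2 protein binds, was found at the Otx2 start richest in CpG (7.06%). CACGTG (7.15%) and the octamer ATGCAAAT, which POU factors bind (1.74%), were in none of these windows of sequence. The promoter coordinates belong to another build than the peaks, so they were not placed on them.

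The strongest H3K4me3 peak of each window was used as its reference point, and it stood in for a promoter. "Strongest" refers to the score that the authors deposited with each peak, which ranks peaks within 1 list and is not comparable between marks. In the H3K4me3 list, 25.4% of peaks reached the level of 3100 at which most high scores stop. Each window held exactly 1 such peak. At Fgf5 it lay at 98682625 to 98685856 (3232 bp), at Otx2 at 49283185 to 49287390 (4206 bp), at Pou3f1 at 124334875 to 124337767 (2893 bp) and at Dnmt3b at 153474633 to 153476976 (2344 bp). These widths exceeded those of 97.7%, 99.4%, 96.1% and 90.9% of the list, in the same order. All 4 windows thus held a top-scoring H3K4me3 peak that was broad against the whole list, with the Otx2 peak the widest. The width ranks are not separate from the choice by score. Of the 7359 H3K4me3 peaks that scored 3100 or more, 2307 were at least as wide as that of Dnmt3b. No annotation of mm9 was used, so which start of which gene a peak covers was not determined.

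**Figure D1:**
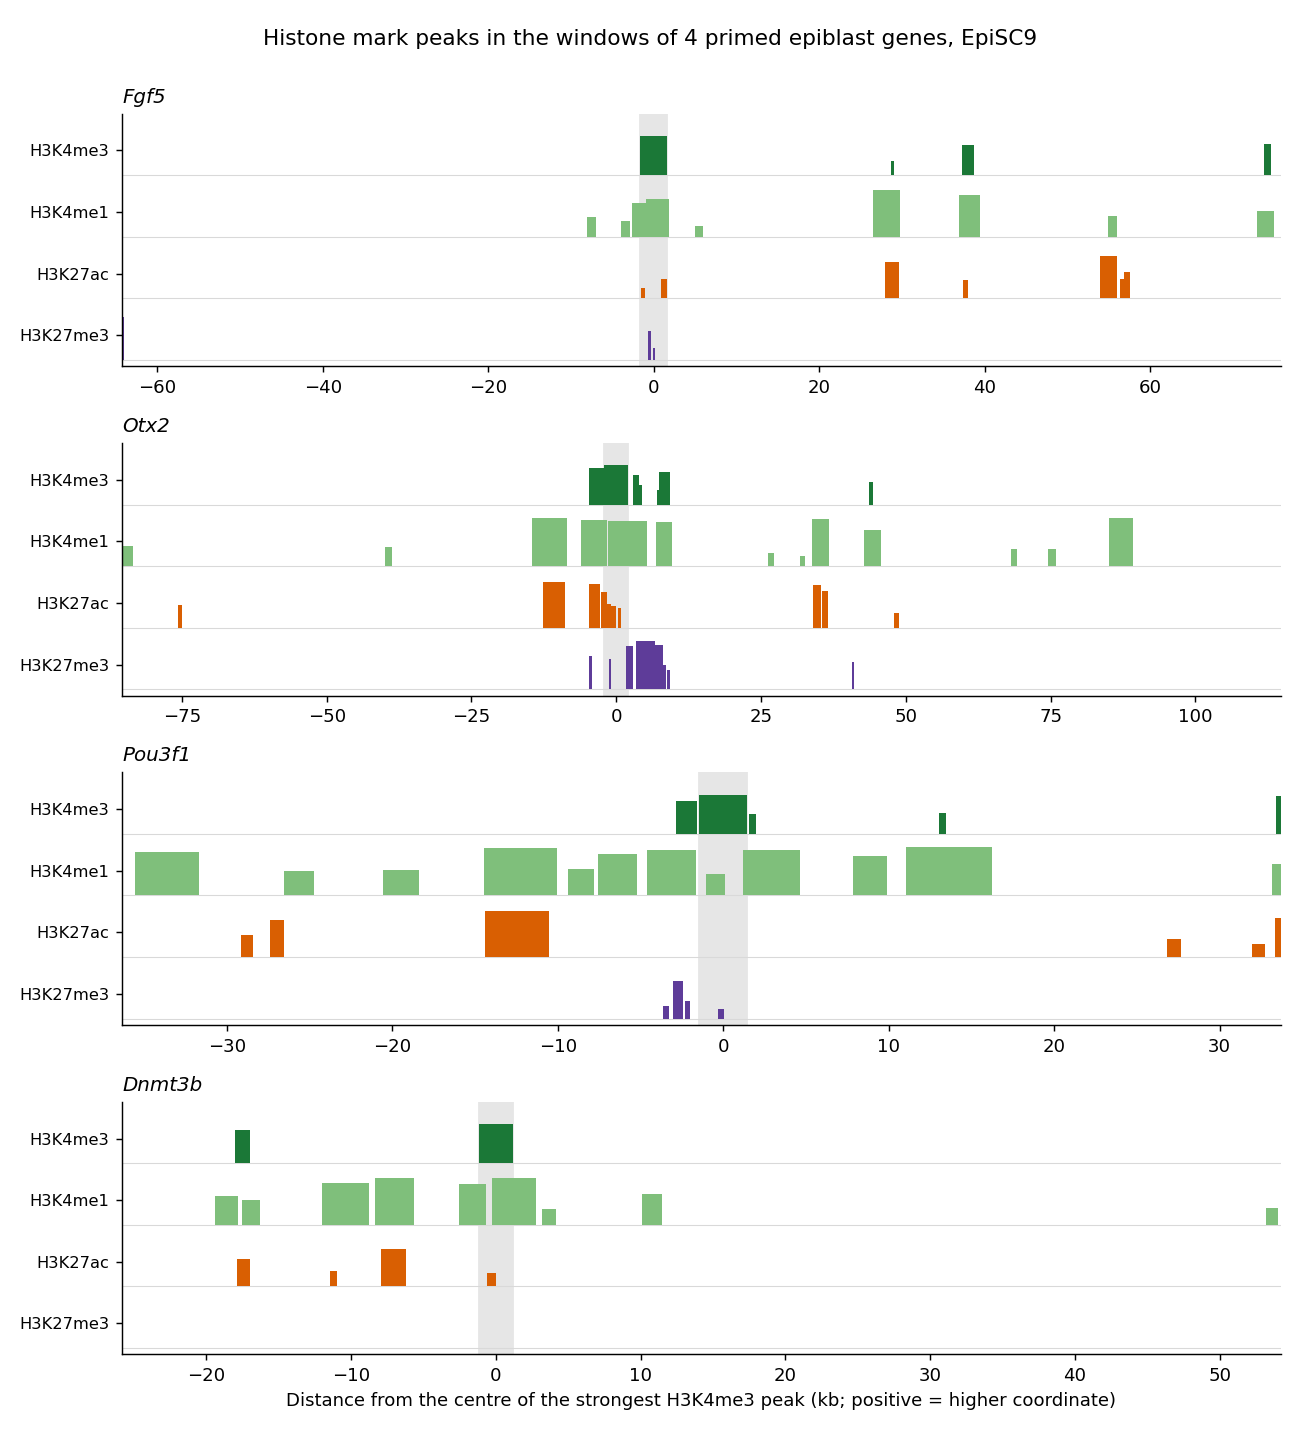
Peaks of H3K4me3, H3K4me1, H3K27ac and H3K27me3 across the Fgf5, Otx2, Pou3f1 and Dnmt3b windows; the x axis is the distance in kb from the centre of the strongest H3K4me3 peak (grey band), bar width is peak width, and bar height rises with the percent of the same list that scores lower. H3K27me3 is seen in 3 windows and not at Dnmt3b, and the tallest H3K27ac bar of each window lies outside the grey band.

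In the deposited lists, the H3K27 marks on these strongest peaks differed from gene to gene. At Dnmt3b the peak carried H3K27ac alone. At Pou3f1 it carried H3K27me3 alone, and at Fgf5 and Otx2 it carried both. Among all 28941 H3K4me3 peaks, 48.2% carried H3K27ac alone, 15.6% H3K27me3 alone, 1.03% both and 35.2% neither. Broad peaks meet other peaks more often, so the closer background is the 2307 peaks that scored 3100 or more and were at least as wide as that of Dnmt3b. Of these, 76.2% carried H3K27ac alone, 13.5% H3K27me3 alone and 4.85% both, against 1, 1 and 2 of the 4 strongest peaks in the windows. This background was chosen after the values were seen. The classes of 3 of the 4 rested on weak peaks. When only peaks at or above their list's median score were kept, or only peaks scoring 100 or more, the strongest peaks of Fgf5, Pou3f1 and Dnmt3b carried neither mark, and that of Otx2 still carried both. Under the first of these filters, 13.4% of the 2307 peaks carried neither and 1.43% both, and under the other 11.6% and 1.52%. The Otx2 class then rested in part on peaks that lay mostly outside the strongest peak. With the median filter, its only H3K27ac peak was the one at 49282586 to 49283613. With the filter at 100, its only H3K27me3 peak was the one at 49286917 to 49288110. Both filters were applied to these classes after the values were seen.

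Within the bounds of the strongest H3K4me3 peaks, acetylation was weak at Fgf5 and Dnmt3b, without a peak at Pou3f1, and stronger at Otx2. At Fgf5, 2 H3K27ac peaks scored 51.17 and 78.74 and covered 36.3% of it. At Otx2, 4 H3K27ac peaks scored 308.21, 103.79, 93.04 and 80.22 and covered 58.5%. The one of 308.21 outscored 65.3% of the H3K27ac list, and most of it lay outside the strongest H3K4me3 peak. At Dnmt3b, 1 H3K27ac peak scored 58.32 and covered 24.7%, and at Pou3f1 there was none. Genome-wide, 6389 H3K4me3 peaks scoring 3100 or more overlapped H3K27ac, and the highest H3K27ac score on them had a median of 866.6. Of those 6389, only 3.35% had a lower value than Fgf5 and 1.06% a lower value than Dnmt3b, and 21.7% were below Otx2. The 3 acetylated peaks of the windows therefore stood below that median, and those of Fgf5 and Dnmt3b near the bottom. For Otx2 this depends on where the peak ends. Its second H3K4me3 peak lay only 47 bp from the strongest one, and an H3K27ac peak on that second peak scored 1064.74, above the median.

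In each window a more strongly acetylated peak lay off the strongest H3K4me3 peak, within 30 kb. The highest such H3K27ac score was 354.1 at Fgf5, 1505.94 at Otx2, 1538.37 at Pou3f1 and 416.54 at Dnmt3b. All 4 windows followed this pattern, against 36.9% of the 6850 H3K4me3 peaks scoring 3100 or more that had any H3K27ac peak within 30 kb. The count is not separate from the low H3K27ac scores on the strongest H3K4me3 peaks given above. At Pou3f1 any H3K27ac peak within 30 kb would meet the pattern, and at Fgf5 and Dnmt3b any above 78.74 and 58.32. Within 10 kb the pattern held at 3 of the 4 genes, Fgf5 being the exception, against 19% of such peaks, and within 60 kb at 4, against 52.2%. The distances were chosen after the values were seen.

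**Figure D2:**
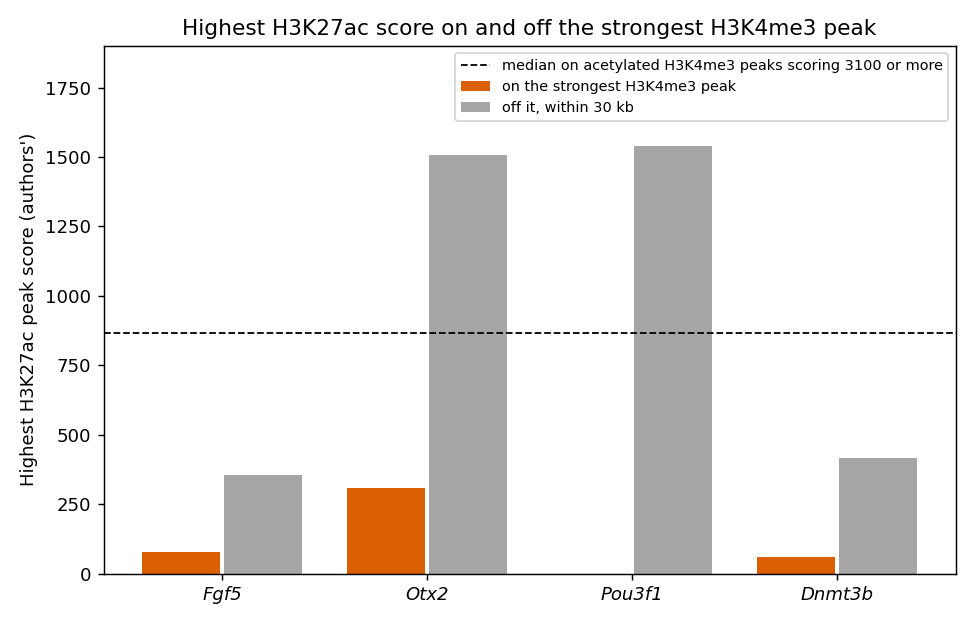
Highest H3K27ac peak score (authors' score, linear axis) on the strongest H3K4me3 peak of each window and off it within 30 kb; the dashed line is the median of 866.6 on the 6389 acetylated H3K4me3 peaks that score 3100 or more. The score on the peak is below that off it at all 4 genes, and Pou3f1 has no H3K27ac peak on it.

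**Figure D3:**
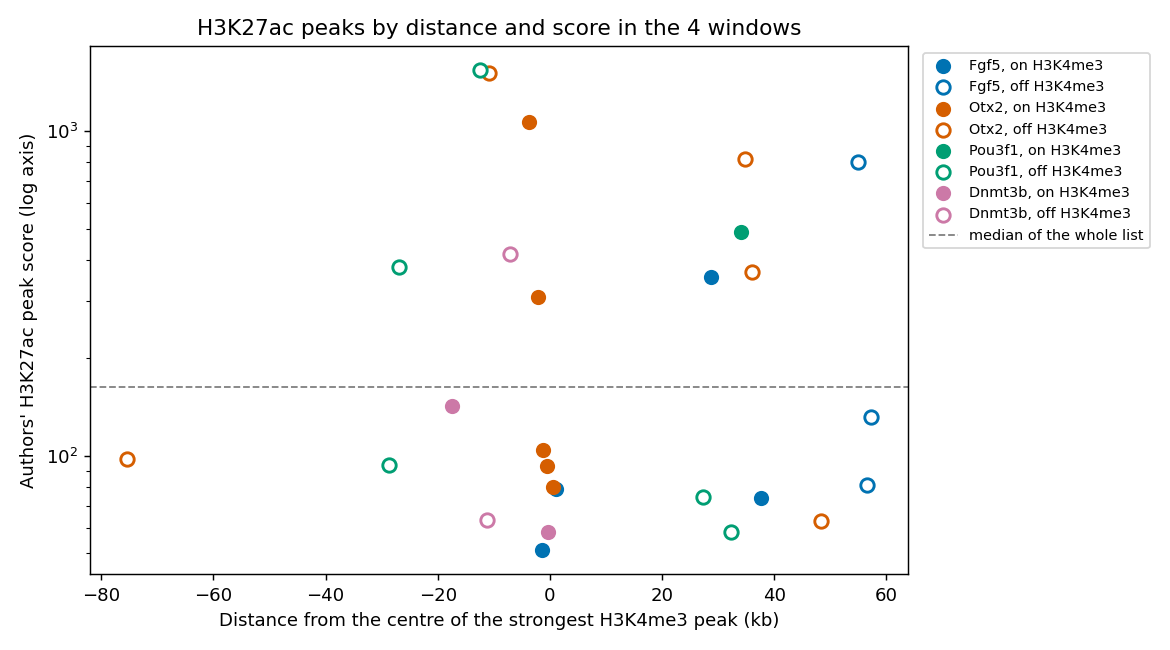
Score (log axis) of the 27 H3K27ac peaks of the windows against the distance in kb from the centre of the strongest H3K4me3 peak; filled points overlap any H3K4me3 peak, open points overlap none, and the dashed line is the list median of 163.2. The highest point of every gene is open.

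At Fgf5, the signalling gene of the set, all H3K27ac off the strongest H3K4me3 peak lay on the side of higher coordinates, which is downstream on the + strand given by RefSeq. It fell into 3 places, with 2 weaker peaks beyond the third. The first, at 98712151 to 98713828 and 26.3 kb from the strongest H3K4me3 peak, scored 354.1 and lay on an H3K4me1 peak of 3281 bp that outscored 92.7% of the H3K4me1 list. A narrow H3K4me3 peak of 336 bp with a score of 68.58 lay within it.

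The next Fgf5 place, 35.6 kb away at 98721470 to 98722892, was an H3K4me3 peak of 1423 bp with a score of 1031.78. It carried a weak H3K27ac peak of 650 bp that scored 74.32. The third, at 98738223 to 98740200 and 52.4 kb away, had the highest H3K27ac score of the window, 802.36, above 82.2% of the list. Its H3K4me1 peak was small, with 1106 bp and a score of 83.47, above only 28.2% of the H3K4me1 list. Those 2 weaker H3K27ac peaks scored 81.08 and 131.18 and touched neither H3K4me1 nor H3K4me3. Each of the 3 places thus led in another mark: the nearest had the highest H3K4me1 score, the middle one the highest H3K4me3 score and the farthest the highest H3K27ac score.

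A further H3K4me3 peak at 98757961 to 98758895 scored 1184.96, lay on H3K4me1 and carried neither H3K27 mark. On the side of lower coordinates the window was nearly empty: beside the H3K4me1 peaks within 5.3 kb it held only the edge of an H3K27me3 peak. At the strongest Fgf5 H3K4me3 peak, the H3K27 marks lay side by side. H3K27me3 peaks of 409 and 324 bp, scoring 68.12 and 51.36, sat in the middle, and the H3K27ac peaks flanked them at gaps of 380 and 648 bp. No base was shared, and all 4 scores were below their list medians, 69.1 for H3K27me3 and 163.2 for H3K27ac.

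**Figure D4:**
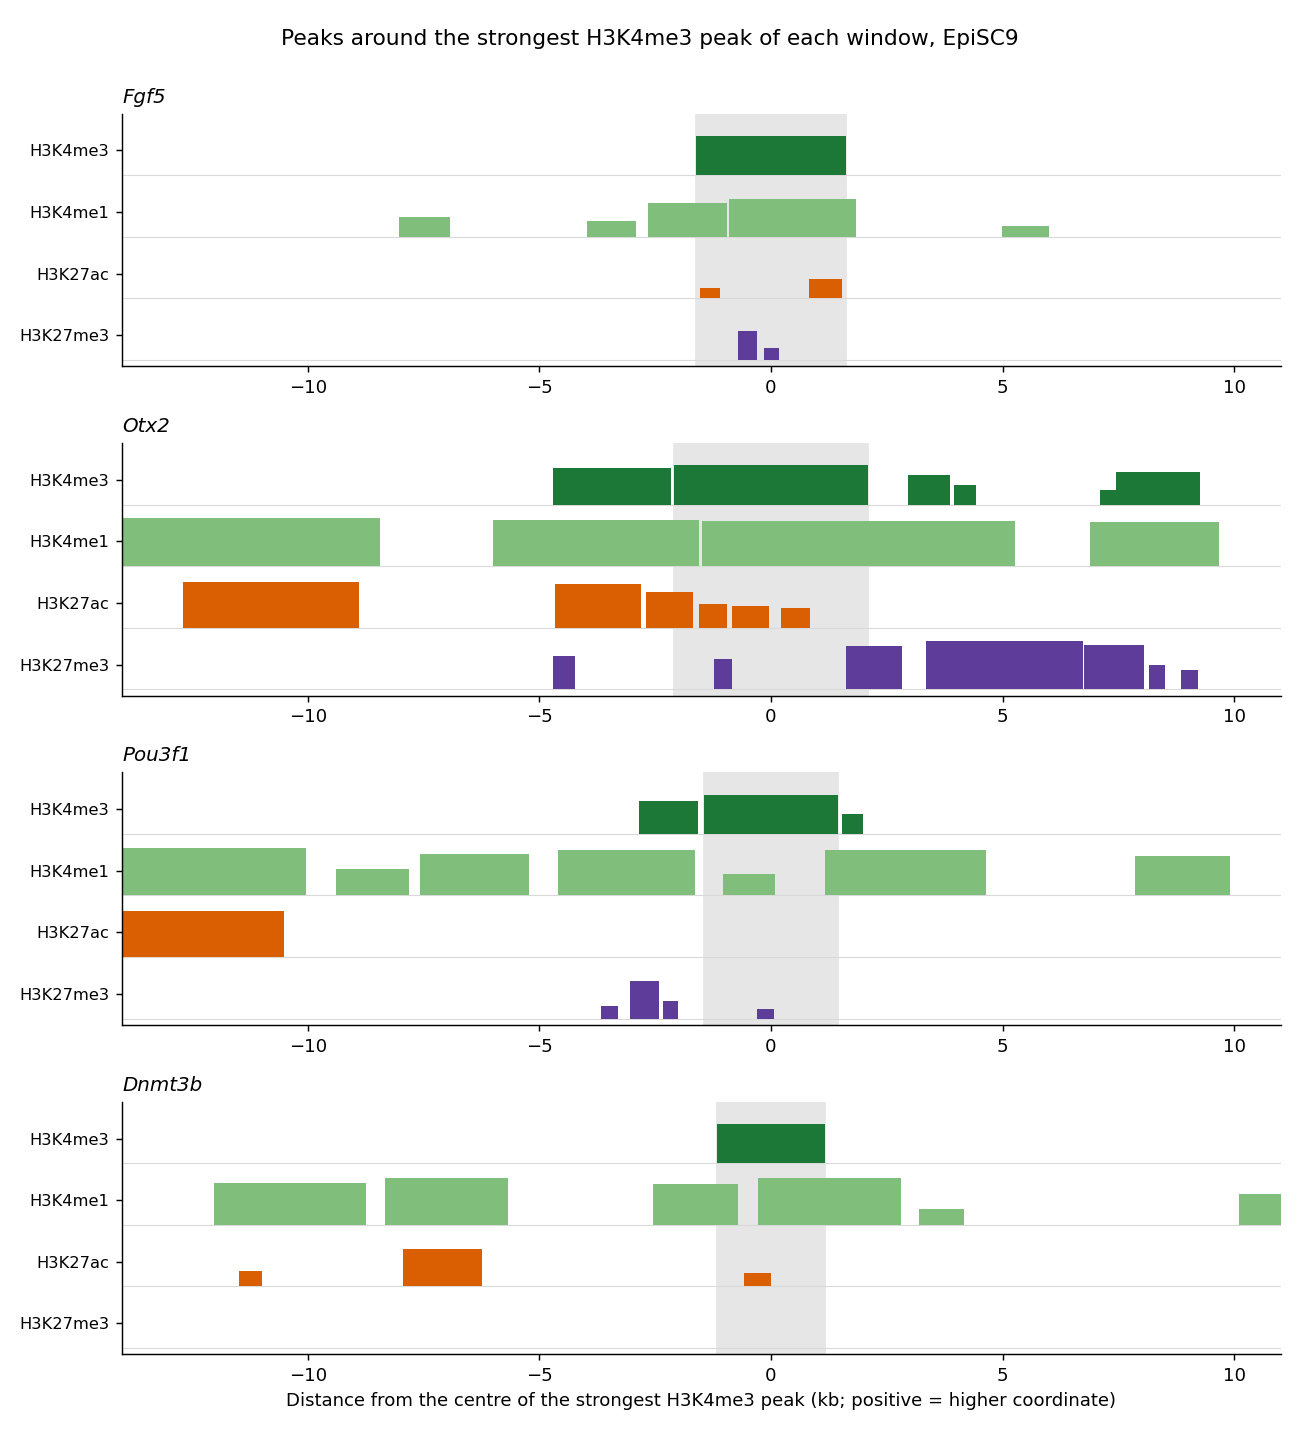
The 4 marks within 14 kb below and 11 kb above the centre of the strongest H3K4me3 peak of each window (grey band), in kb; bar width is peak width and bar height rises with the percent of the list that scores lower. At Fgf5 the H3K27me3 bars lie between the H3K27ac bars, and at Otx2 the H3K27ac bars run from the left up to just past the centre, with the largest H3K27me3 bars to their right.

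Otx2 had the largest H3K27me3 cover of the 4 windows, 7.86 kb or 3.93% of the window. Its 38 peaks, in the longest window, came to 0.19 per kb, as at Dnmt3b (0.19) and below Pou3f1 (0.39), with Fgf5 at 0.16. Of its 7 H3K4me3 peaks, 2 carried both H3K27 marks, 4 carried H3K27me3 alone and 1 carried neither. Of its 10 H3K27ac peaks, 6 formed a cluster from 49272599 to 49286141 that covered 8.71 kb, more than 97.1% of all 16953 H3K27ac clusters in the genome. Its 2 leading peaks were at 49272599 to 49276402, 3804 bp wide with a score of 1505.94, and at 49280627 to 49282472, 1846 bp wide with a score of 1064.74. The wider one lay on a distal H3K4me1 peak of 6158 bp, wider than 98.7% of that list, and the other on the second H3K4me3 peak, at 49280588 to 49283137, which scored 2463.98.

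Most H3K27me3 at Otx2 lay on the other flank. A run of 7 H3K27me3 peaks from 49280589 to 49294516 covered 7.48 kb, more than 96.1% of the 7561 H3K27me3 domains joined within 5 kb. Its main peak, at 49288644 to 49292018, was 3375 bp wide and scored 1461.35, above 97.7% of the list. The last H3K27ac peak of the cluster ended at 49286141, and the next H3K27me3 peak began 775 bp further on, still within the strongest H3K4me3 peak. The widest H3K4me1 peak of the 4 windows, at 49283795 to 49290545, spanned this transition with 6751 bp and a score of 386.34. RefSeq places Otx2 on the - strand, so the acetylated flank is the downstream one and the H3K27me3 flank the upstream one. In its table the next gene on the upstream side is Otx2os1, a long noncoding RNA gene.

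Both marks also met at single places of Otx2. The H3K27me3 peak at 49280589 to 49281059 shared 433 bp with H3K27ac, and the one at 49284050 to 49284441 shared 295 bp. They were 2 of the 15 H3K27me3 peaks of the windows, against 1.27% of the whole list. Both were weak, with scores of 80.21 and 70.67. H3K27me3 lay on H3K4me3 in 13 of the 15, where the whole list had 33.2%. The 13 include the Fgf5 edge peak at 98619301 to 98620243, which met only an H3K4me3 peak outside the window. The 15 are not separate cases, as 7 belonged to the Otx2 run and 4 to 1 run at Pou3f1. The windows were also placed on genes, so these shares are a description and were not tested.

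Farther from the strongest Otx2 H3K4me3 peak, an H3K27ac pair at 49319349 to 49321851, 32 kb away, scored 819.06 and 366.82 on an H3K4me1 peak that scored 497.33. The highest H3K4me1 score of all 4 windows, 852.57, was at 49370435 to 49374542, 83 kb from the strongest H3K4me3 peak. This element of 4108 bp outscored 98.3% of the H3K4me1 list and carried no H3K27ac, H3K27me3 or H3K4me3 peak. The strongest H3K4me1 of the windows was therefore unacetylated in these lists. Single peaks of lower score lay far from the cluster and the H3K27me3 run. An H3K4me3 peak at 49328865 to 49329626 scored 248.63 without an H3K27 mark. H3K27ac peaks at 49209668 to 49210225 and 49333294 to 49334091 scored 97.82 and 63.13, and an H3K27me3 peak at 49325998 to 49326383 scored 64.82.

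Pou3f1 differed from the others in having no H3K27ac peak on its strongest H3K4me3 peak. At Fgf5 and Dnmt3b such peaks scored at most 78.74 and 58.32, and both score filters removed them. The H3K4me3 peak next to the strongest one of Pou3f1, at 124333481 to 124334751, scored 1652.62 and carried H3K27me3 as well. So 2 of the 5 H3K4me3 peaks of this window carried H3K27me3 alone. The H3K27me3 peaks were weak: 4 peaks with scores of 51.4, 110.15, 54.8 and 50.1 covered 1.67 kb. The last of these, on the strongest peak, scored higher than only 0.159% of the list. H3K4me1 covered 48.8% of the strongest H3K4me3 peak, less than at Fgf5 (98.8%), Otx2 (98.4%) or Dnmt3b (81.4%).

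Acetylation at Pou3f1 was concentrated at 124321924 to 124325814, 9.1 kb below the strongest H3K4me3 peak. This H3K27ac peak of 3891 bp had the highest H3K27ac score of the 4 windows, 1538.37, above 91% of the list, and was wider than 98.3% of it. It lay on a distal H3K4me1 peak of 4460 bp that scored 602.83. With 2 peaks at 124307198 to 124309741 it formed a cluster that covered 5.4 kb, more than 92.6% of clusters.

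H3K4me1 was dense around Pou3f1, where 12 peaks covered 45% of the window, more than 99.3% of the 37717 genome tiles of the same length. One of them, at 124347395 to 124352535, scored 829.62 over 5141 bp and held only a narrow H3K4me3 peak of 433 bp, with no H3K27 mark. At the upper edge, an H3K4me3 peak at 124369702 to 124370919 scored 2695.81 and carried H3K27ac with a score of 487.69. It extended past the window, and it belonged to an H3K27ac cluster of 14 kb covered length, from 124363154 to 124393075, most of which lay outside. RefSeq lists Utp11 as the next coding gene in that direction, and the peak was not assigned to either gene. Joined within 5 kb, the H3K27ac cluster at this edge ran only from 124363154 to 124371082 and covered 3.01 kb.

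Dnmt3b, the methyltransferase gene, had the simplest arrangement and was the one window with no H3K27me3 peak. The nearest H3K27me3 peak outside it was 92.9 kb beyond its lower edge. Both of its H3K4me3 peaks carried H3K27ac alone. The one at 153457813 to 153458844 scored 1598.26 and carried H3K27ac with a score of 142.16, higher than the 58.32 on the strongest peak. Commd7 is the next gene on that side in the RefSeq table.

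Between these H3K4me3 peaks lay the main acetylated element of Dnmt3b, at 153467871 to 153469561. It scored 416.54, was 5.1 kb from the strongest H3K4me3 peak, and lay on an H3K4me1 peak of 2655 bp that outscored 94.3% of its list. On the + strand given by RefSeq this is the upstream side. A neighbouring H3K27ac peak of 495 bp at 153464325 to 153464819 scored 63.52 on an H3K4me1 peak of 3276 bp. On the downstream side there were H3K4me1 peaks at 2, 8.9 and 52 kb and no H3K27ac, so all acetylation of the window was on the strongest H3K4me3 peak or at lower coordinates.

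Over the 4 windows, the distal elements were counted as H3K4me1 peaks with no H3K4me3 peak within 1 kb. Of these, 4 were at Fgf5, 9 at Otx2, 7 at Pou3f1 and 5 at Dnmt3b, 25 in all. H3K27ac without H3K27me3 marked 6 of the 25, against 18.6% of the 51179 distal elements of the whole list, and the other 19 carried neither mark, against 80.5%. None carried H3K27me3, which marked 0.846% of the whole list without H3K27ac. The 6 acetylated elements, of which 1 was at Fgf5, 2 at Otx2, 1 at Pou3f1 and 2 at Dnmt3b, were wide and strong as H3K4me1 peaks: their median width was 3074.5 bp, and their median score was 516.4. The same class of the whole list had medians of 2086.5 bp and 210.8. The other 19 went the other way, with medians of 1305 bp and 79 against 1378 bp and 99 for their class in the whole list. The small H3K4me1 peak of Fgf5 (1106 bp, 83.47) was the weakest of the 6. A share of 6 in 25 is near the background and was not tested.

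Of the 27 H3K27ac peaks, 14 had no H3K4me3 peak within 1 kb, against 54.1% of the list, and 8 touched neither H3K4 mark, against 16.7%. Of these 8, 4 were at Pou3f1, 2 at Fgf5 and 2 at Otx2, and Dnmt3b had none. All 18 H3K4me3 peaks lay on H3K4me1, against 83.2% of the list. The median H3K27ac score was 103.8 in the windows and 163.2 in the whole list, so the few strong H3K27ac peaks described above stood beside many weak ones.

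Peaks of the active marks covered more of each window than of the genome. H3K27ac covered 4.81% of the Fgf5 window, 6.2% at Otx2, 10.5% at Pou3f1 and 4.51% at Dnmt3b, against 1.45% of the span that peaks reach. For H3K4me3 the values were 4.23%, 5.53%, 7.64% and 4.22% in the same order, against 1.27%. For H3K27me3 they were 0.698%, 3.93%, 2.38% and 0%, against 0.468%. Among genome tiles of the same length, 90.7%, 94.5%, 97.3% and 89.3% had less H3K27ac. The windows were placed on genes, so these covers are a description and were not tested.

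**Figure D5:**
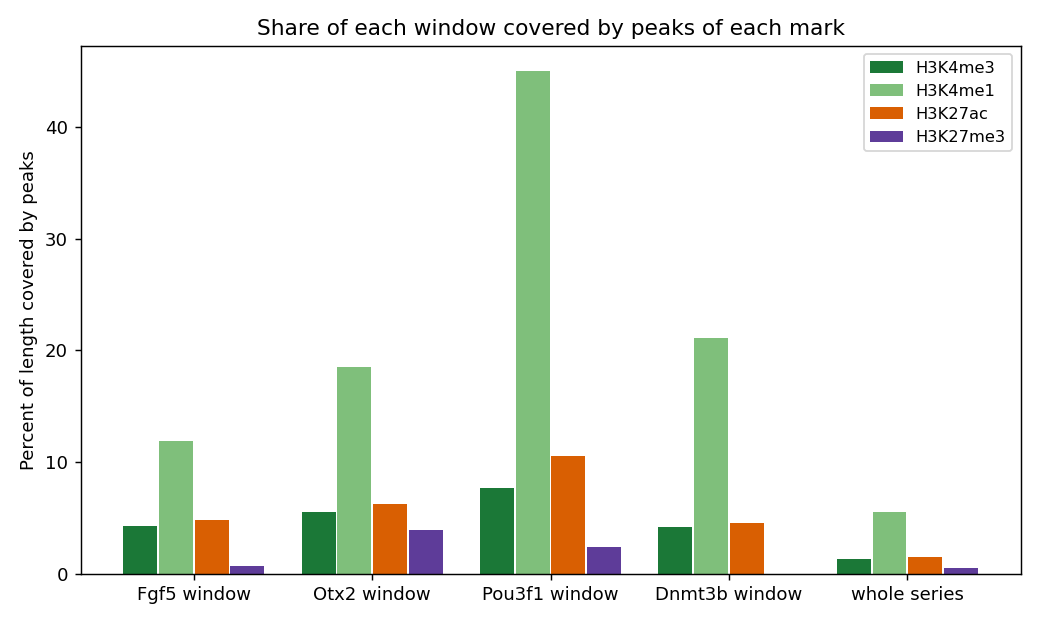
Percent of length covered by peaks of each mark in the 4 windows and, on the right, in the whole series; bars start at 0 and each rests on 1 library. Pou3f1 has the highest cover of H3K4me1 (45%) and H3K27ac (10.5%), Otx2 the highest of H3K27me3 (3.93%), and Dnmt3b none.

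Some peaks lay across or just beyond the window edges. At Fgf5, an H3K27me3 peak at 98619301 to 98620243 entered the window by its end. It ended a domain that began at 98594544, covered 19.83 kb and ranked 65 among 7561 H3K27me3 domains, with no H3K27ac peak. The nearest coding gene on that side in the RefSeq table is Prdm8. Just outside, H3K4me3 scored 532.31 at a distance of 0.666 kb. At Pou3f1, an H3K4me3 peak scoring 135.04 lay 0.947 kb beyond the upper edge, and at Dnmt3b an H3K4me1 peak scoring 174.08 lay 0.978 kb beyond the lower edge. Around Otx2 the nearest outside peak was H3K4me1 at 26.3 kb, with a score of 93.27.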

How the data were processed

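Peak lists of 4 histone marks in EpiSC9 cells were analysed, grouped by the antibody in the labels. Each list holds mm9 intervals and, for every peak, a score, as the authors deposited them, and the peak names carry the prefix of MACS, per the files. The submitters' processing notes name Bowtie 0.12.9, MACS 1.4 and Cufflinks, with no role or order. Nothing used here states the calling threshold, control or duplicate treatment, and no read counts were used, so depth is unknown and no interval is given. Scores start at 50, and many stop at 3100. An input library was not analysed here.

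Intervals overlapped when they shared 1 bp; distal meant no H3K4me3 peak within 1 kb. Joining used gaps of up to 12.5 kb for H3K27ac clusters and 5 kb for H3K27me3 domains. Percentiles give the share of a list, or of genome tiles of window length, that is strictly lower. Coordinates are 1-based. Gene names, neighbours and strands come from RefSeq GRCm38.p6, whose coordinates were not used. Any peak of H3K4me3, H3K27ac or H3K27me3 could be named, and among H3K4me1 peaks the widest, the highest scoring and the distal ones with an H3K27 mark. Further H3K4me1 peaks appear where they carry a named peak or were singled out after their values were seen. The genes, windows and settings were chosen with earlier results of these data known. With 1 library per mark no test was run. Overlap and joining were tested on simulated data. Python 3.11.15 with numpy 2.4.6, pandas 2.3.3 and matplotlib 3.10.9 was used.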

Additional observations from a re-analysis of the deposited data

How the results depend on the processing

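No paired analysis was possible because each mark has 1 library and no result comes from a test. Of 50 values over the 4 windows under other settings, 29 stayed within 1.5 times the main value and 21 did not. With peaks at or above their list's median score, H3K4me3 peaks with H3K27ac alone numbered 1 (5 in the main setting), distal H3K4me1 elements 13 (25), H3K27me3 peaks 7 (15), and H3K27ac covered 19.4 kb (30.07 kb). With peaks scoring 100 or more these counts were 3, 14 and 5, and with every list limited to its best peaks, as many as the shortest list has, the first pair were 1 and 10, with 19.4 kb of H3K27ac. These filters leave fewer peaks by construction, and the first 2 of them remove the H3K27ac and H3K27me3 peaks on the strongest H3K4me3 peak of Fgf5, the H3K27ac peak on that of Dnmt3b and the H3K27me3 peak on that of Pou3f1, so that 1 of the 4 strongest peaks kept an H3K27 mark under each (4 in the main setting). Windows extended by 50 kb held 39 H3K4me3 peaks (18), 17 with H3K27ac alone, 50 distal elements, 46.72 kb of H3K27ac and 25 H3K27me3 peaks, and windows shortened by 10 kb held 3 H3K4me3 peaks with H3K27ac alone. With H3K4me3 excluded within 5 kb, distal elements numbered 16 and acetylated ones 3 (6). Joining H3K27ac within 5 kb gave 14 clusters (9). An overlap of 0.5 of the narrower peak and membership by midpoint moved none of the 6 values over the windows beyond 1.5 times. For single genes and the H3K27ac comparison by distance, 133 of 186 values stayed within it. Distances of 10 and 60 kb for the H3K27ac comparison, and the score filters on the strongest peaks, were added after the data were examined. Unknown depth limits every absence: a mark without a peak was not detected at the authors' threshold.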
